A study of Rattus norvegicus with 12 samples.

Results

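Neurotrophins and 3 ligands of the GDNF (glial cell line-derived neurotrophic factor) family, with 3 of their receptors, were measured in the rat colon after neonatal maternal separation (NMS) and after NMS with the probiotic mixture VSL#3. The genes were Bdnf, Ntf3, Ntrk2, Ntrk3, Ngfr, Gdnf, Nrtn and Artn, and every probe that the array files name for 1 of these 8 genes was taken, which gave 12 of 30367 probes. Ntrk2 had 4 probes, Ntrk3 had 2, and each of the other genes had 1. Rats of Group C (C1 to C4) stayed with their mothers and were given placebo. Rats of Group M (M5 to M8) underwent NMS for 180 min a day from day 2 to day 14 and were given placebo. Rats of Group D (D9 to D12) underwent NMS and were given VSL#3, whose dose differs between the labels and the methods of the paper. All 12 animals were male Wistar rats of 200 to 250 g, were gavaged daily with 100 µL from day 3 to day 60, and underwent colorectal distension (CRD) before the colon was taken, so that no group shows a colon without distension. The RNA of each rat was hybridized to an array of its own.

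Neurotrophins are secreted proteins that keep neurons alive and set the sensitivity of sensory nerve endings. Bdnf (brain-derived neurotrophic factor) signals mainly through the receptor tyrosine kinase TrkB, which is encoded by Ntrk2, and Ntf3 (neurotrophin 3) signals mainly through TrkC, which is encoded by Ntrk3. Ngfr encodes the p75 neurotrophin receptor, which binds all neurotrophins and is found on glia, Schwann cells and some nerves, and also on follicular dendritic cells of lymphoid tissue. Gdnf, Nrtn (neurturin) and Artn (artemin) bind co-receptors of the Gfra family and signal through the kinase Ret, which is required for the enteric nervous system to form.

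The probes for Ngfr, Ntrk3 and Nrtn are printed here, with probes 1, 3 and 4 of Ntrk2. The signals of Ntrk2 lay at or near background, so its transcript variants could not be compared. The first 30 bases of these 60-base probes are given 5′ to 3′ in lower case, as the files hold them. Positions of the whole probes are those of the rn4 build, and their place within exons or untranslated regions is not given in the sources used here.
Ngfr, chr10:84263082-84263141, minus strand: gagaccaggagcattgtacgcatacgcggg
Ntrk3 probe 1, chr1:133925530-133925589, minus strand: ttgaccgaaacgaacatcttcatataaact
Ntrk3 probe 2, chr1:134081453-134081512, minus strand: ttggcatgactcgaattccagtcattgaga
Nrtn, sequence not assigned to a chromosome, positions 25029877 to 25029936, plus strand: ctcacgccccgacctgcaaaggggccctgg
Ntrk2 probe 1, chr17:11496095-11496154, minus strand: aagaacatccacacactccttcagaacttg
Ntrk2 probe 3, chr17:11680049-11680108, minus strand: cctttctgaaaaggtagtttatctttaggg
Ntrk2 probe 4, chr17:11734704-11734763, minus strand: ggaagactgtgcaaacattatactcctgaa
The files name transcript variant 1 of Ntrk2 for its probes 1 and 2, which lie 0.912 kb apart, variant 2 for probe 3, which lies 184 kb from probe 1, and variant 3 for probe 4, which lies 239 kb from it. The pair of Ntrk3 probes carries the same RefSeq record and lies 156 kb apart, so they read different stretches of the gene. The GC content of the 12 probes ranged from 35% to 55%, around a median of 45% over all probes.

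Levels are log2 signals relative to the 75th percentile of the array, which is 0 on this scale. The 75th percentile itself lay between 1434 and 1953 signal units on the 12 arrays, 75.5% to 77.5% of the spots were well above background, and no spot was saturated. All 6 epithelial markers and all 6 smooth muscle markers were well above background on all 12 arrays. Groups C and M were on 1 slide and Group D was on another, scanned separately, so that slide and treatment cannot be told apart in any comparison with Group D, while Group M vs Group C is a comparison within a slide. On that slide Group C filled array row 1 and Group M array row 2, so that array row and group cannot be told apart either. The paper analysed 11 arrays and drew D9 to D11, and the same 11 arrays are used in the comparisons here, with rat D12 given as a value and all 12 arrays named where they were used. A probe was called where limma gave an adjusted p no higher than 0.05. Beside it stands the criterion of the methods, for which the p of a 1-way analysis of variance and that of Tukey's test had to reach 0.05 without adjustment and the means had to lie 2-fold apart.

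Of the 12 probes, 7 were well above background in every rat, and they covered 6 of the 8 genes (Ngfr, Ntrk3, Ntf3, Gdnf, Nrtn and Artn). Bdnf and Ntrk2, a ligand and its main receptor, were not. The probe for Bdnf, which has 10 spots on each array, was well above background on 0 of 12 arrays, with levels from -8.92 to -8.45. Probes 2, 3 and 4 of Ntrk2 were also well above background on 0 of 12 arrays, with levels from -9.1 to -7.49. Probe 1 of Ntrk2 was above background in 4 rats, which were C1 at -6.13, M7 at -6.63, D9 at -6.15 and D12 at -6.45. These rats came from all 3 groups. For Bdnf and Ntrk2 the arrays therefore gave no usable difference, and the plain limit is that their signal in whole colon was at or near background. For Bdnf this rests on 1 probe, and whether little RNA or a weak probe gave the signal was not tested.

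**Figure D1:**
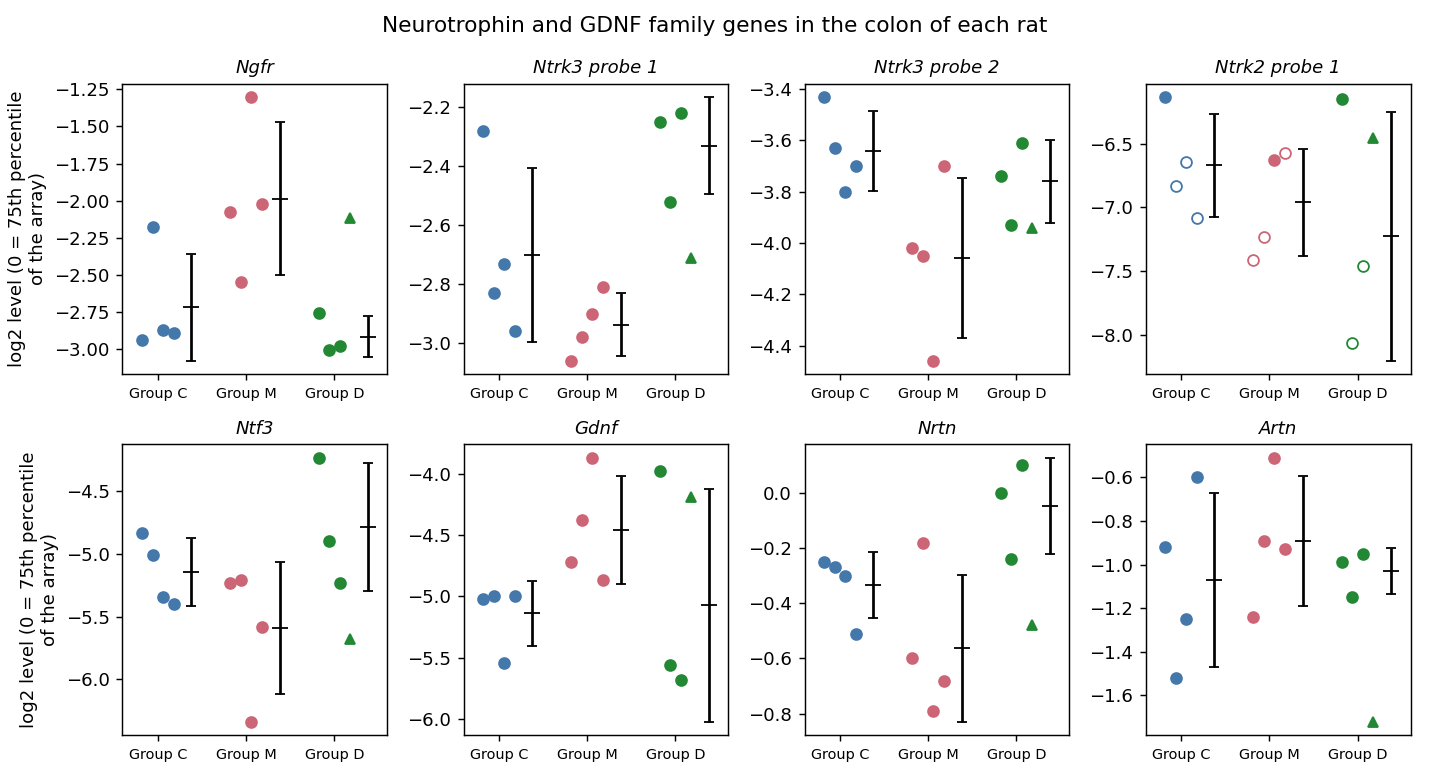
Levels of 8 probes by rat, as log2 signal relative to the 75th percentile of the array; filled points are well above background and open points are not, the triangle is rat D12, and the bar beside each group is the mean with its SD over 4 rats (3 in Group D, without D12). Ngfr is highest in Group M, from -2.55 to -1.3, and Ntrk2 is well above background in 4 rats.

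No probe of the 8 genes was called in any comparison. In Group M vs Group C, 0 of 12 were called by limma, where 0.204% of all probes were, and 0 of 12 met the criterion of the methods, which 2.31% of all probes did. The counts for Group D vs Group M were also 0 of 12 and 0 of 12, beside 0.171% and 2.66% of all probes. Those for Group D vs Group C were 0 of 12 and 0 of 12, beside 0.00659% and 0.369%. Limma gave an unadjusted p no higher than 0.05 for 2 of 12 probes (16.7%) in Group M vs Group C, where 22.7% of all probes lay under that limit. It gave 4 of 12 (33.3%) in Group D vs Group M, where 21.6% of all probes did, and 1 of 12 (8.33%) in Group D vs Group C, where 5.97% did. The median difference of the 12 probes was -0.17, -0.02 and 0.05 in the 3 comparisons, and that of all probes was -0.01, 0.01 and -0.01. The rats of the compared groups did not overlap for 1, 2 and 1 of the 12 probes, beside 9.23%, 15.8% and 7.57% of all probes. By the brightest probe of each gene, an unadjusted limma p of at most 0.05 was reached by 1 of 8 (12.5%), 4 of 8 (50%) and 1 of 8 (12.5%). Over all 12 arrays it was reached by 1, 3 and 0 of these 8. The unadjusted shares in Group D vs Group M thus lay above that of all probes. Whether the shares differ from those of all probes was not tested, and the values that follow describe single genes.

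**Figure D2:**
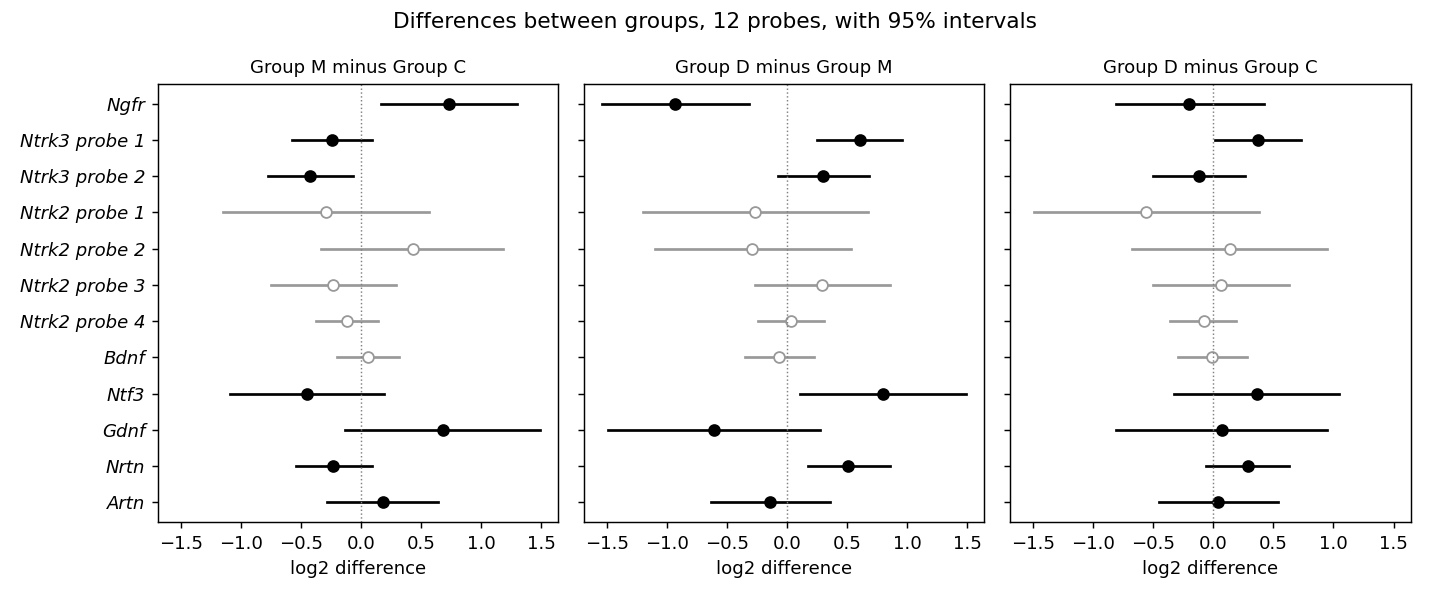
Log2 differences between group means for the 12 probes in the 3 comparisons, each with its 95% interval from limma over 11 arrays; grey open points are the probes of Bdnf and Ntrk2, which lie at or near background. The intervals of Ngfr lie above 0 in Group M minus Group C, from 0.17 to 1.3, and below 0 in Group D minus Group M, from -1.54 to -0.32.

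Among the receptors, Ngfr was the gene with the widest difference in both Group M vs Group C and Group D vs Group M among the 7 probes well above background. Its level was -2.94, -2.18, -2.87 and -2.89 in C1 to C4, then -2.08, -2.55, -1.3 and -2.02 in M5 to M8, and -2.76, -3.01 and -2.98 in D9 to D11. It was -2.12 in D12. Rat M7 was the highest of all, rat C2 overlapped with Group M, and D9 to D11 lay below every rat of Group M while D12 lay among them. The group means were -2.72 ± 0.36 (SD, n = 4) in Group C, -1.99 ± 0.51 (SD, n = 4) in Group M and -2.92 ± 0.14 (SD, n = 3) in Group D. Group M was 1.66-fold higher than Group C, a log2 difference of 0.73 (SE 0.26), with a limma p of 0.0162 and an adjusted p of 0.142. Group D was 1.91-fold lower than Group M, a log2 difference of -0.93 (SE 0.28), with a limma p of 0.0069 and an adjusted p of 0.117. With D12 included that difference was -0.73, with a limma p of 0.0264.

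Whether Ngfr was called depended on rat M6, which had the lowest Ngfr of Group M, and on the weighting of the arrays. With M6 left out, the difference of Group M vs Group C was 0.92 with an adjusted limma p of 0.0324. The difference of Group D vs Group M was then -1.12 with an adjusted limma p of 0.0235, and Ngfr also met the criterion of the methods. Without M6, 4914 and 4504 of all probes were called in these comparisons, against 62 and 52 with it. Without rat M7, which had the highest Ngfr, the differences were 0.51 and -0.7, with adjusted limma p values of 0.304 and 0.207. With all 11 arrays and array quality weights, Ngfr was called in both comparisons, at 0.8 with an adjusted limma p of 0.0109 and at -0.93 with an adjusted limma p of 0.0116. These weights called 8151 and 6576 of all 30367 probes, against 62 and 52 without them. Group D and Group C, which differ in slide, separation and treatment, differed in Ngfr by -0.2 with a 95% interval from -0.81 to 0.42, and by 0 over all 12 arrays.

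Markers of B cells, T cells and macrophages were highest in the 5 rats with the highest Ngfr. The mean level of 2 B cell markers (Ms4a1 and Cd79b) was -0.76 in C2, 0.23 in M5, -0.72 in M7, -0.29 in M8 and 0.78 in D12, and lay between -6.24 and -3.64 in the other 7 rats. These 5 rats were also the 5 with the highest Ngfr, from -2.18 to -1.3, while the other 7 lay between -3.01 and -2.55. Within the 5 the order differed, since M7 had the highest Ngfr and D12 the highest B cell mean. By group, the mean of the B cell markers ranged from -5.53 to -0.76 in Group C, from -4.92 to 0.23 in Group M and from -6.24 to -3.64 in D9 to D11. Of these 2 markers, 0 had an unadjusted limma p of at most 0.05 in Group M vs Group C, beside 22.7% of all probes. In Group D vs Group M 2 had it, both lower in Group D, beside 21.6% of all probes. The 4 T cell markers were highest in the same 5 rats, from -0.56 to 1.22, against -3.03 to -1.95 in the others. The 5 macrophage markers were highest on average in these 5 rats too, from 0.24 to 0.44, against -0.36 to 0.01 in the others. Of the macrophage markers, 2 of 5 had an unadjusted limma p of at most 0.05 in Group M vs Group C, both higher in Group M. In Group D vs Group M it was 5 of 5, all lower in Group D. Of the T cell markers, 0 of 4 had such a p in either comparison. Over all 12 arrays, with D12, the counts were 0 of 5 and 2 of 5 for macrophage markers. For B cell markers they were then 0 of 2 and 0 of 2, and for T cell markers 0 of 4 and 0 of 4. Of all 30367 probes, 5620 and 3704 had such a p over 12 arrays.

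Cr2, the complement receptor of follicular dendritic cells and B cells, and Cxcl13, the chemokine that draws B cells into follicles, were looked up after these values were seen. Cr2 lay between -1.73 and -0.55 in the same 5 rats and between -8.76 and -5.4 in the others. Cxcl13 lay between 0.1 and 1.15 in the 5 rats and between -3.58 and -2.29 in the others. The part of lymphoid tissue and macrophages in the Ngfr values was not tested. In pieces of whole colon such as these, a different number of cells of a type and a different amount of RNA per cell cannot be told apart.

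The mean of 5 enteric glia markers was highest in Group M, where it ranged from -4 to -3.81, against -4.49 to -4.2 in Group C and -4.46 to -4.25 in D9 to D11. Within Group C it was lowest in C2, the rat of that group with the highest Ngfr, and in D12 it was -4.2. Of the 5 glia markers, 2 had an unadjusted limma p of at most 0.05 in Group M vs Group C, beside 22.7% of all probes. Both were higher in Group M. These were Sox10, the transcription factor of glial identity, by 0.77 and Gfap, a glial filament protein that was well above background on 7 of 12 arrays, by 1.52. S100b and Erbb3, which also mark enteric glia, differed by -0.06 and -0.14, and Cdh19 was well above background on 0 of 12 arrays. In the comparison of Group D with Group M, Sox10 differed by -0.45 and S100b by 0.33. Gfap was well above background in 0 of the 3 rats D9 to D11, so that only a bound holds. It was at least 2.6-fold lower there than in Group M, measured against the lowest signal well above background on each array. The adjusted limma p of 0.083 belongs to the signals as measured and not to this bound. Over all 12 arrays, where D12 was well above background, the limma p was 0.0226 and the adjusted limma p was 0.337. The 4 mast cell markers lay between -4.49 and -2.77 on average in Group C and between -2.75 and -1.53 in Group M. All 4 had an unadjusted limma p of at most 0.05 in Group M vs Group C, higher in Group M, beside the same 22.7% of all probes. The part of glia and mast cells in the Ngfr values was not tested.

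**Figure D3:**
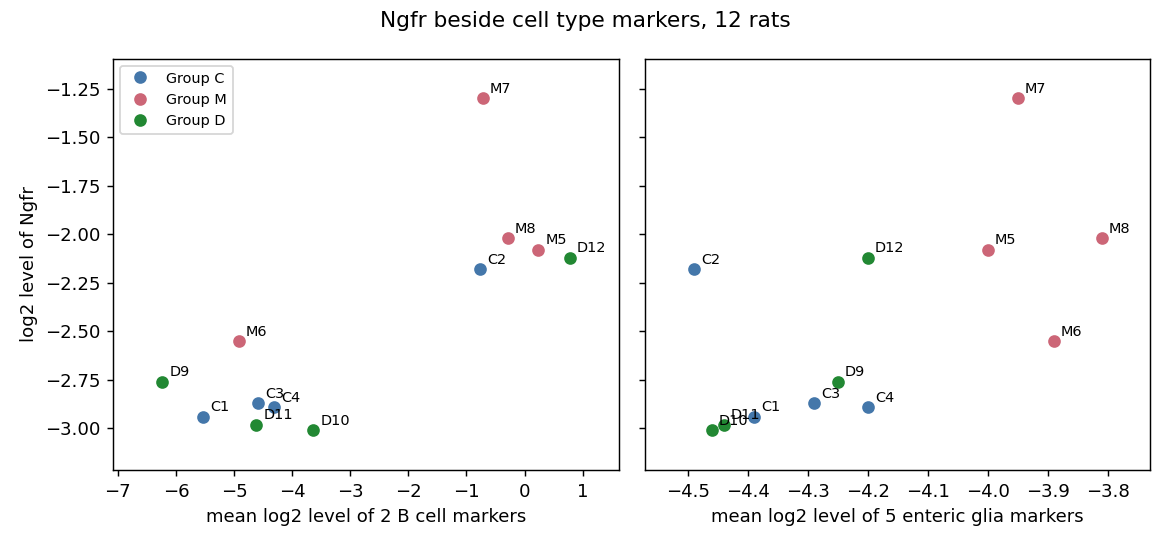
Log2 level of Ngfr in each of the 12 rats (vertical axis) beside the mean log2 level of 2 B cell markers (left) and of 5 enteric glia markers (right), coloured by group. On the left the 5 rats C2, M5, M7, M8 and D12 lie apart at the upper right, with B cell means from -0.76 to 0.78, and the other 7 lie at -3.64 or below.

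Ntrk3, the receptor of neurotrophin 3, gave levels well above background with both probes. By probe 1 the levels were -2.28, -2.83, -2.73 and -2.96 in C1 to C4, then -3.06, -2.98, -2.9 and -2.81 in M5 to M8, and -2.25, -2.52 and -2.22 in D9 to D11, with -2.71 in D12. All 4 rats of Group D lay above all 4 rats of Group M, while rat C1 lay within Group D. The means were -2.7 ± 0.3 (SD, n = 4) in Group C, -2.94 ± 0.11 (SD, n = 4) in Group M and -2.33 ± 0.17 (SD, n = 3) in D9 to D11. Group D was 1.52-fold higher than Group M by this probe, a log2 difference of 0.61 (SE 0.16), with a limma p of 0.00347 and an adjusted p of 0.1. Over all 12 arrays the difference was 0.51, with a limma p of 0.00841. Group D vs Group C differed by 0.37 with a 95% interval from 0.01 to 0.73, a limma p of 0.0431 and an adjusted p of 0.825.

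Probe 2 of Ntrk3 gave another picture. Its levels were -3.43, -3.63, -3.8 and -3.7 in C1 to C4, then -4.02, -4.05, -4.46 and -3.7 in M5 to M8, and -3.74, -3.93 and -3.61 in D9 to D11, with -3.94 in D12. Group M was lower than Group C in 3 of its 4 rats, and M8 lay within Group C. The log2 difference of Group M vs Group C was -0.42 (SE 0.16), a 1.34-fold lower level, with a limma p of 0.0246 and an adjusted p of 0.162, where probe 1 gave -0.24 with a limma p of 0.141. Probe 2 gave 0.3 in Group D vs Group M with a limma p of 0.111. Both probes therefore pointed down in Group M and up in Group D relative to Group M, but in Group D vs Group C they pointed apart, with 0.37 by probe 1 and -0.12 by probe 2, and the 95% interval of the latter was -0.5 to 0.26. The difference between the probes was not tested.

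Among the ligands, Ntf3, which TrkC binds, had levels of -4.83, -5.01, -5.34 and -5.4 in C1 to C4, of -5.23, -5.21, -6.34 and -5.58 in M5 to M8, and of -4.23, -4.9 and -5.23 in D9 to D11. It was -5.68 in D12. Rat M7 was the lowest of all, and rat D9 the highest. The means were -5.14 ± 0.27 (SD, n = 4) in Group C, -5.59 ± 0.53 (SD, n = 4) in Group M and -4.79 ± 0.51 (SD, n = 3) in D9 to D11. Group D was 1.75-fold higher than Group M, a log2 difference of 0.8 (SE 0.31), with a limma p of 0.0265 and an adjusted p of 0.175, and over all 12 arrays the difference was 0.58 with a limma p of 0.0963. Group M vs Group C differed by -0.45 with a 95% interval from -1.09 to 0.19. Single rats moved these values, to -0.2 in Group M vs Group C without M7, and to 0.53 in Group D vs Group M without D9, with a limma p of 0.129.

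Nrtn, the ligand whose co-receptor is Gfra2, had levels of -0.25, -0.27, -0.3 and -0.51 in C1 to C4, of -0.6, -0.18, -0.79 and -0.68 in M5 to M8, and of 0, -0.24 and 0.1 in D9 to D11. It was -0.48 in D12. M5, M7 and M8 were the 3 lowest rats, while M6 was above all of Group C. The means were -0.33 ± 0.12 (SD, n = 4) in Group C, -0.56 ± 0.27 (SD, n = 4) in Group M and -0.05 ± 0.17 (SD, n = 3) in D9 to D11. Group D was 1.43-fold higher than Group M, a log2 difference of 0.51 (SE 0.15), with a limma p of 0.0072 and an adjusted p of 0.118. Over all 12 arrays the difference was 0.41, with a limma p of 0.0261. Without rat M6 it was 0.64, and the adjusted limma p was then 0.015. Nrtn in D9 to D11 lay above every rat of Group C, with a difference of 0.29 and a 95% interval from -0.06 to 0.63, whereas D12 lay among Group C.

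Gdnf, the founding member of its family, had levels of -5.02, -5, -5.54 and -5 in C1 to C4 and of -4.72, -4.38, -3.87 and -4.87 in M5 to M8, so that every rat of Group M was higher than every rat of Group C. The log2 difference was 0.68 (SE 0.37), a 1.6-fold higher level, but with a limma p of 0.0918 and an adjusted p of 0.298. The SD was 0.27 in Group C, 0.44 in Group M and 0.95 in D9 to D11. The rats of Group D fell apart, with -3.98 in D9 and -4.19 in D12, but -5.56 in D10 and -5.68 in D11. Group D vs Group M differed by -0.61 with a 95% interval from -1.49 to 0.27. Without rat D9 this difference was -1.16 and met the criterion of the methods, so that a single rat decided it.

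Artn, which binds Gfra3, differed little. Its levels were -1.52 to -0.6 in Group C, -1.24 to -0.51 in Group M and -1.15 to -0.95 in D9 to D11, with -1.72 in D12. The group ranges overlapped in all 3 comparisons. The log2 differences were 0.18 in Group M vs Group C, -0.14 in Group D vs Group M and 0.04 in Group D vs Group C, and their 95% intervals reached from -0.28 to 0.64, from -0.63 to 0.36 and from -0.45 to 0.54, so a change of 1 on the log2 scale (2-fold) lies outside these intervals.

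The other genes of these pathways were taken from 3 lists of 32 measured genes. They hold the co-receptors and adaptors of neurotrophins (15 genes), further genes of the GDNF family (9 genes) and other neurotrophic factors (8 genes). The GDNF family list holds receptors and partners of the family and its ligand Pspn (persephin). No gene of these lists was called by limma in any comparison. In Group M vs Group C, 9 of 32 (28.1%) had an unadjusted limma p of at most 0.05, 2 higher and 7 lower in Group M, beside the 22.7% of all probes given above. The count was 11 of 32 (34.4%) in Group D vs Group M, 8 higher and 3 lower in Group D, beside 21.6%, and in Group D vs Group C it was 1 of 32 (3.12%), beside 5.97%. Both Group M vs Group C and Group D vs Group M use the rats of Group M, so that an opposite sign in these comparisons is no separate observation. The criterion of the methods was met by 1, 2 and 0 of the 32 genes, beside 2.31%, 2.66% and 0.369% of all probes. Over all 12 arrays it was met by 1, 0 and 0 of them, beside 473, 288 and 104 of all 30367 probes.

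Rtn4r and Lingo1, which together with the p75 receptor form the receptor complex for inhibitors of axon growth in myelin, were the 2 genes that met the criterion in Group D vs Group M. Rtn4r had levels of -2.78, -3.19, -2.56 and -2.97 in C1 to C4, of -3.51, -3.51, -4.38 and -3.9 in M5 to M8, and of -2.77, -2.77 and -2.69 in D9 to D11, with -3.96 in D12. Group M lay below every rat of Group C and below D9 to D11, and D12 lay within Group M. The log2 difference of Rtn4r was -0.95 (SE 0.2) in Group M vs Group C, with a limma p of 0.000772 and an adjusted p of 0.0895. It was 1.08 (SE 0.22) in Group D vs Group M, with a limma p of 0.000527 and an adjusted p of 0.0745. Over all 12 arrays the latter was 0.78, with a limma p of 0.0232 and an adjusted limma p of 0.34.

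Lingo1 had levels of -4.23, -5.12, -4.43 and -5 in C1 to C4, of -5.44, -4.95, -6.66 and -5.42 in M5 to M8, and of -4.02, -3.71 and -4.84 in D9 to D11, with -5.96 in D12. It was again lowest in M7 and, next to it, in D12. Group D vs Group M differed by 1.42 (SE 0.41), with a limma p of 0.0061 and an adjusted p of 0.113, and by 0.98 over all 12 arrays. Rat M7, which had the highest Ngfr, had the lowest Rtn4r and Lingo1. Lingo1 was well above background on 11 of 12 arrays but not in M7, so its differences rest in part on a signal near background.

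Sorcs3, a sorting receptor related to sortilin, met the criterion in Group M vs Group C, but it was well above background in 1 of 4 rats of Group C and 0 of 4 of Group M, and no fold is given. Sort1, sortilin, a partner of the p75 receptor, differed by -0.52 in Group M vs Group C with a limma p of 0.0692 and by 0.68 in Group D vs Group M with a limma p of 0.0333. The receptors of the GDNF family came next. Ret, the shared signalling kinase, lay between -5.38 and -4.66 in all 12 rats and differed by 0.1, 0.04 and 0.13 in the 3 comparisons, with limma p values of 0.534, 0.832 and 0.435. Gfra1, the co-receptor of Gdnf, differed by 0.16, -0.23 and -0.08. Gfra2, the co-receptor of Nrtn, differed by 0.35 in Group M vs Group C with a limma p of 0.0486, and by -0.24 and 0.11 in the others. Gfra3, the co-receptor of Artn, differed by 0.41, -0.76 and -0.35, with a spread among the rats from -6.18 to -3.12 and no limma p below 0.223.

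**Figure D4:**
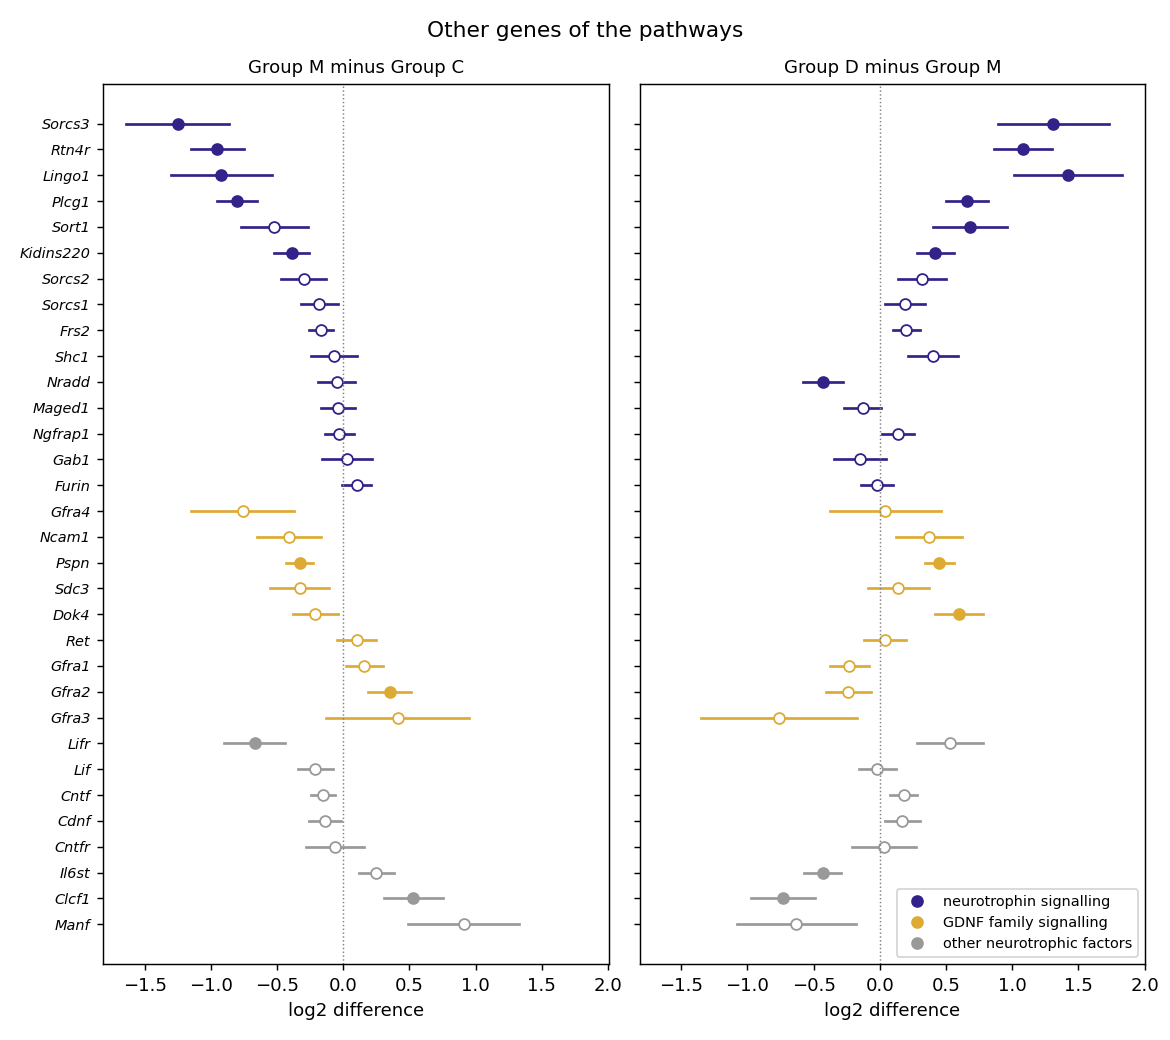
Log2 differences of 32 other pathway genes in Group M minus Group C (left) and Group D minus Group M (right), with bars of 1 SE from limma; filled points have an unadjusted limma p of at most 0.05, and colours give the 3 lists. Rtn4r lies at -0.95 on the left and 1.08 on the right, and Ret lies at 0.1 and 0.04.

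Lists of nerve cells and of interstitial cells of Cajal were read beside these genes. The mean of 10 enteric neuron markers ranged from -2.98 to -2.61 in Group C, from -2.97 to -2.6 in Group M and from -2.69 to -2.5 in D9 to D11, with -2.82 in D12. Of these markers, 1 of 10 had an unadjusted limma p of at most 0.05 in Group M vs Group C and 4 of 10 in Group D vs Group M, 3 of them higher in Group D. The shares of all probes were 22.7% and 21.6%. Over all 12 arrays the counts of markers were 1 of 10 and 2 of 10, beside 5620 and 3704 of all 30367 probes. The mean of the markers Kit and Ano1 of interstitial cells was -0.48 in M5, -0.51 in M7, -0.51 in M8 and -0.38 in D12, and between -0.03 and 0.57 in the other 8 rats, M6 among them. The part of these cells in the values of Ntf3, Ntrk3, Nrtn, Rtn4r and Lingo1 was not tested.

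The genes whose levels ran most like those of each member over the 12 arrays were sought among 13613 probes of named genes well above background on every array. This is a description over arrays that share 2 slides and hold the 5 rats with high B cell markers described above. For Ngfr these were Cd44, a hyaluronan receptor, at a Pearson r of 0.985, Anxa1, annexin A1, at 0.983, and Vgf, the precursor of neuropeptides, at 0.98. For Ntrk3 (probe 1) they were Rasip1 at 0.977 and Tob2 at 0.926. For Ntf3 they were siat7D at 0.966, Unc119 at 0.935 and Reck at 0.933, and for Nrtn they were Vtn, vitronectin, at 0.939, Pcdhb19 at 0.932 and Cd7 at 0.93. For Artn they were Perp at 0.948, Fap at 0.933 and Celsr3 at 0.918. Gdnf had the loosest likeness, with Eif3a at 0.882, Zfp451 at 0.867 and Irf1 at 0.862.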

How the data were processed

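Colon RNA of 12 rats was hybridized to 1-colour Agilent arrays. Per the file headers, Feature Extraction 10.5.1.1 made the deposited intensity values (processed signals) with background subtraction, linear and not yet normalized. The authors' deposited matrix holds log2 values. From the intensities, log2 signals minus the log2 75th percentile of the array were computed. Of 62976 spots per array, control and outlier spots were left out, and the spots of each of 30367 probes were averaged. The number of rats limits the precision.

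Comparisons used limma 3.58.1 in R 4.3.3 (1 model of 3 groups, 11 arrays, Benjamini-Hochberg adjustment over all probes), and a pathway or marker gene was read by its probe with the highest mean signal. Named genes are all members, Ret, Gfra1, Gfra2, Gfra3, Sort1, pathway genes past a threshold and the 3 most like genes of each member. Pspn was added after its values were seen. The members and lists were chosen with earlier results of these data known. The steps were tested on simulated data. Some results are not reported here, and lists and their means were computed without those genes. Nothing in the labels says that littermates were spread over groups, so p values measure the spread between these rats. Alternatives were all 12 arrays, normexp (offset 50), quantile and median normalization, the authors' matrix, outlier spots kept, a filter on dim probes, array quality weights, a replicate block, a model of only the 2 compared groups, and each rat left out.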

Additional observations from a re-analysis of the deposited data

Results flagged for a closer look

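Of 24 groups of 4 rats examined for a rat far from the others, 2 held 1, and chance gives about 1 in 20 such groups. Ngfr in rat C2 of Group C was at -2.18 while the other 3 rats lay between -2.94 and -2.87, a gap of 0.915 of the range of the group. Gdnf in rat C3 of Group C was at -5.54 while the others lay between -5.02 and -5, a gap of 0.962 of the range. Rat D12, which the comparisons do not use, had a signal above every rat of Group C for Ngfr, at -2.12 against -2.94 to -2.18, and for Gdnf, at -4.19 against -5.54 to -5.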

How the results depend on the processing

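No probe of the 8 genes was called in the main comparisons. With array quality weights, 2 probes were called at an adjusted limma p of at most 0.05 in Group M vs Group C (Ngfr, with an adjusted limma p of 0.0109, and Nrtn, with 0.038) and 3 in Group D vs Group M (Nrtn, with 0.00985, Ngfr, with 0.0116, and probe 1 of Ntrk3, with 0.0411). Of all 30367 probes, 8151 and 6576 were called with these weights. With each rat left out in turn, the counts by limma ranged from 0 to 1 in Group M vs Group C and from 0 to 2 in Group D vs Group M, above 0 only without M6. Those by the criterion of the methods ranged from 0 to 1 in Group D vs Group M, above 0 without M6 (Ngfr) and without D9 (Gdnf). Without M6, limma called 4914 and 4504 of all probes in these comparisons. The criterion in Group D vs Group M was met by 2026 of all probes without M6 and by 562 without D9. The cause of this dependence was not tested. All other alternatives gave counts of 0 by limma, and by the criterion where it was computed, which it was not with weights, the replicate block or the model of only the 2 compared groups. With a replicate block, 0 probes were called in all 3 comparisons, Ngfr differed by 0.73 with an adjusted limma p of 0.269 in Group M vs Group C, and the counts over all probes went from 62 to 1 and from 52 to 1. Of 12 pairs of rats with the same number, 3 had correlated deviations (r over 0.1, range -0.72 to 0.589). The main comparisons did not pair the rats by number, and whether such rats share an origin was not tested.

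Differences near 0 changed sign. For Bdnf, near background, these were -0.02 (normexp) and -0.02 (weights) in Group M vs Group C, then 0.08 (normexp), 0.02 (median) and 0.01 (weights) in Group D vs Group M, and 0.02 (12 arrays), 0.05 (normexp), 0.04 (median), 0.02 (matrix), 0 (outlier spots kept) and 0.01 (replicate block) in Group D vs Group C. With each rat left out, Bdnf ranged from -0.04 to 0.12 in Group M vs Group C, from -0.11 to 0.04 in Group D vs Group M and from -0.03 to 0.05 in Group D vs Group C. Ntrk2 in Group D vs Group M was 0.07 with normexp and ranged from -0.81 to 0.16 with each rat left out. In Group D vs Group C, Ngfr was 0 and Artn -0.13 with 12 arrays, and with weights Gdnf was -0.03 and Artn 0. With each rat left out, Gdnf ranged from -0.48 to 0.37 and Artn from -0.11 to 0.2 there. Signals at or near background limit what can be said of Bdnf and Ntrk2.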
